A study of Mus musculus with 12 samples.

Results

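Wide c-Fos peaks were the regions of 2000 to 5000 bp in a list of genomic sites bound by c-Fos in the hippocampus after kainic acid, and 456 of the 3294 listed peaks (13.8%) on 19 autosomes and the X chromosome were chosen by that width. They were set against the 2820 peaks under 2000 bp, called narrower peaks here, and 18 peaks over 5000 bp (5036 to 18691 bp) were left apart. The study ran CUT&RUN, an assay in which a nuclease tethered to an antibody releases the bound chromatin fragments that are then sequenced, on nuclei of CA1, a pyramidal cell field. The 12 samples formed 4 groups of 3 replicates: c-Fos antibody after kainic acid (KA), IgG after KA, c-Fos antibody after phosphate buffered saline (PBS) and IgG after PBS. All mice, in the KA and PBS groups alike, were C57BL/6 animals of 3 to 4 weeks with the genotype CaMK2a-Cre/+; LSL-Sun1-GFP/+, and each reaction took 50000 sorted nuclei 2 to 3 h after injection. CaMK2a-Cre switches on the nuclear envelope tag Sun1-GFP in excitatory neurons, so the sort keeps nuclei with a history of Cre activity, and the labels do not say how many animals made up a replicate. The values analysed were the positions in 1 list, described by its name as replicated peaks of c-Fos against IgG after KA. Signal, scores and values per library were not part of it, so the depth and the spread between replicates are unknown. Binding after PBS was not analysed here.

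c-Fos pairs with proteins of the Jun family to form AP-1, a transcription factor that binds a short palindromic DNA motif at promoters and, more often, at distal enhancers. Neurons make c-Fos after strong firing, which kainic acid, a glutamate receptor agonist, brings about. A peak in CUT&RUN is a stretch of DNA over which released fragments pile up, and its width is the length of the stretch that the caller kept. Width chose the peaks described here, so it is given only as a description.

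Promoters that lay whole within a wide peak show what kind of DNA some of these peaks covered. The sequences are RefSeq promoter windows of the assembly GRCm38.p6, the same as mm10, and run from 250 bases before to 50 bases after an annotated transcript start. The first 4 are shown for the AP-1 motif, TGANTCA, or the related cyclic AMP response element (CRE), TGACGTCA, and capitals mark each match. Rcan1 encodes a regulator of the phosphatase calcineurin, and both of its promoters lay in a wide peak of their own. Its first promoter (chr16:92466120-92466419, minus strand) had no match, whereas the internal promoter (chr16:92400029-92400328, minus strand), which yields a shorter isoform known to be induced by calcineurin signalling, had a CRE starting at -175 bp and an AP-1 match starting at -110 bp from the start. Trim9, which encodes a ubiquitin ligase of neurons, had an AP-1 match starting 15 bp after its start (chr12:70347565-70347864, minus strand). Gm3448 (chr17:15010135-15010434, minus strand) had one that spanned its start, beginning at -1 bp.
Rcan1 first promoter: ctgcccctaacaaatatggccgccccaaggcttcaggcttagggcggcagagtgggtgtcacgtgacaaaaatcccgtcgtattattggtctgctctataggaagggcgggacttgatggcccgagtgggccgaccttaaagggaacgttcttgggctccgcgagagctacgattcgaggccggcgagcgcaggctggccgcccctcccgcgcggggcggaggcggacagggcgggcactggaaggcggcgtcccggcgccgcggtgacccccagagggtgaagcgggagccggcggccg
Rcan1 internal promoter: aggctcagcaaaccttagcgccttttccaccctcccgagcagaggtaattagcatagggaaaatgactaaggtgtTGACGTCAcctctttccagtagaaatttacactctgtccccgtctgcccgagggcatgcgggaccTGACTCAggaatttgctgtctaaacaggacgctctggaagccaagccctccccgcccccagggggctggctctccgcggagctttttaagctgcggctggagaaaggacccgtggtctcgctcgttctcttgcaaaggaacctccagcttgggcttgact
Trim9 promoter: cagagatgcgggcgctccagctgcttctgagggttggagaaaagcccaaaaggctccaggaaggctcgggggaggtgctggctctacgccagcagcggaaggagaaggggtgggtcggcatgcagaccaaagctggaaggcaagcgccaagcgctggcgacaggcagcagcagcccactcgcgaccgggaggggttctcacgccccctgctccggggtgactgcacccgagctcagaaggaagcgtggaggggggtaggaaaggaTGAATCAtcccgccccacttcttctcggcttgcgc
Gm3448 promoter: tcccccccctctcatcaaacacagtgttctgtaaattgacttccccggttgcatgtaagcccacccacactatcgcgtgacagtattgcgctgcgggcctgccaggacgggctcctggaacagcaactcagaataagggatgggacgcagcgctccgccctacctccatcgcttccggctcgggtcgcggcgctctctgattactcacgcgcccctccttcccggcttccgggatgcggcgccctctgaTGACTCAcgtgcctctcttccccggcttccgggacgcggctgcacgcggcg

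The next 3 are shown for their content of CpG, a cytosine followed by a guanine, the pair that is dense in the CpG islands of many promoters, and capitals mark each CpG. Homer1 (chr13:93303507-93303806, plus strand), which encodes a postsynaptic scaffold protein with a short activity-induced isoform, had 26 CpGs in 300 bases. Isl1 (chr13:116309639-116309938, minus strand), which encodes a homeodomain factor of motor neurons and heart progenitors, had 37. Lhx8 (chr3:154330511-154330810, minus strand), which encodes a homeodomain factor of forebrain cholinergic neurons, had 4. The ratio of observed to expected CpGs was 0.874 at Homer1, 1.05 at Isl1 and 0.241 at Lhx8, so wide peaks covered both CpG-rich and CpG-poor promoters.
Homer1 promoter: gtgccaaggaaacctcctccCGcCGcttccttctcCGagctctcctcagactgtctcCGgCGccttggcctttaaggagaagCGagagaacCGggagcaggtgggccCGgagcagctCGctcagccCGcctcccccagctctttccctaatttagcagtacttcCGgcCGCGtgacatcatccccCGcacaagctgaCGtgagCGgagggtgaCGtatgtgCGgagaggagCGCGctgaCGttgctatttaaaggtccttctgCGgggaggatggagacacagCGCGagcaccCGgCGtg
Isl1 promoter: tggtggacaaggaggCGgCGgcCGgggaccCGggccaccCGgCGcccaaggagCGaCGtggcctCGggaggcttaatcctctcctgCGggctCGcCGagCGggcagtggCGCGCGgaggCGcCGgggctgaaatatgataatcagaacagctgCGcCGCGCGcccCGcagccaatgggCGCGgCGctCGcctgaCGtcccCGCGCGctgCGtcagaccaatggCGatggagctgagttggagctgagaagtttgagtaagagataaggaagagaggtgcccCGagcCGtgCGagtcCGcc
Lhx8 promoter: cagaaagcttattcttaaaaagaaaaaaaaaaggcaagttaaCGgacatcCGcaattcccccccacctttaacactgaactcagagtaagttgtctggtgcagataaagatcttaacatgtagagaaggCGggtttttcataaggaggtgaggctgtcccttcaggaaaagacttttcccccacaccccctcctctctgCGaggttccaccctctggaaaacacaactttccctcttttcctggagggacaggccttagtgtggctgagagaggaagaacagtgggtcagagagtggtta

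Wide peaks measured 2001 to 4981 bp, with a median of 2386 bp and quartiles of 2153 and 2757 bp, while the median of narrower peaks was 1272 bp (299 to 1996 bp). Just inside 2000 bp lay the peaks nearest to Opn3, Kbtbd3, Tex2 and Plk2, of 2001 bp each, and just outside it those nearest to Dpt, Myo3b and Bckdhb, of 1996 bp each. The widest member, 4981 bp, began upstream of the homeobox gene Otp, and the next in order lay at St6galnac5 (4756 bp), Spink8 (4679 bp), Meis1 (4569 bp) and Hivep2 (4402 bp). Trappc6b (4363 bp), Zic2 (4355 bp), Nkx2-3 (4241 bp), Tbx5 (4238 bp) and Tbx2 (4225 bp) were the nearest genes of the other peaks among the 10 widest. Of these 10 nearest genes, Otp, Meis1, Zic2, Nkx2-3, Tbx5 and Tbx2 encode developmental transcription factors. Just over 5000 bp, and not counted as members, were peaks nearest to Gria1 (5036 bp), Nell2 (5104 bp) and Nkx6-1 (5260 bp).

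Wide peaks lay closer to genes than narrower peaks did. Of the wide peaks, 46 of 456 (10.1%, exact 95% interval 7.48 to 13.2) had their middle within 1 kb of either end of a protein-coding gene, against 173 of 2820 narrower peaks (6.13%, 5.28 to 7.08). The difference was 3.95 percentage points (95% interval 1.34 to 7.17), with an odds ratio of 1.72 (Fisher's exact test, two-sided, with p adjusted over 4 location shares, adjusted p = 0.00928). This difference was 2.22 points and no longer passed (exact test, adjusted p = 0.131) without the peaks whose nearest gene belonged to 6 families of developmental transcription factors, described below. It was also smaller, 1.1 points, in a window of 500 bp (exact test, adjusted p = 0.298), and 1.21 points for peaks from 2500 bp (exact test, adjusted p = 0.627). Peaks are the units of these tests, neighbouring peaks are not independent, and the p-values concern positions within 1 list and not variation between animals.

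Wide peaks also lay inside protein-coding genes more often. There were 266 of 456 wide peaks (58.3%, 53.7 to 62.9) with their middle inside a gene, against 1442 of 2820 narrower peaks (51.1%, 49.3 to 53.0), an odds ratio of 1.34 with a 95% interval of 1.09 to 1.64 (Fisher's exact test, two-sided, adjusted p = 0.00928). Without the peaks inside Syt1, Dlgap1, Magi2 and St6galnac5, the 4 genes that held most wide peaks, the difference of 7.20 points became 4.91 points and did not pass the test (exact test, adjusted p = 0.0984). Nor did it pass among peaks with no other within 12500 bp (4.44 points, exact test, adjusted p = 0.133) or for wide peaks from 2500 bp (9.88 points, exact test, adjusted p = 0.0516). The median length of the gene holding a wide peak was 162 kb, and 205 kb for a narrower peak, with a gene counted once for each peak it held. The lower quartiles were 41.1 and 80.0 kb, while the upper quartiles went the other way, at 466 and 455 kb. These lengths carry no test.

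Of the wide peaks, 134 (29.4%) lay more than 100 kb from every gene end, against 952 narrower peaks (33.8%), and the difference of -4.37 points (95% interval -8.74 to 0.296) did not pass the test (exact test, adjusted p = 0.0912). At a limit of 50 kb it was -10.3 points and passed (exact test, adjusted p = 0.000209), as it did at 100 kb with wide peaks from 1800 bp, with no upper width limit or with all gene types. By the median, the nearest gene end was 35.4 kb away for wide peaks and 53.1 kb for narrower peaks. Within 10 kb of a gene end lay 142 wide peaks (31.1%) and 551 narrower peaks (19.5%), and between 1 and 10 kb lay 96 wide peaks (21.1%) and 378 narrower peaks (13.4%). From 10 to 100 kb the order turned, with 180 wide peaks (39.5%) and 1317 narrower peaks (46.7%). These 3 shares are given with no test.

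**Figure D1:**
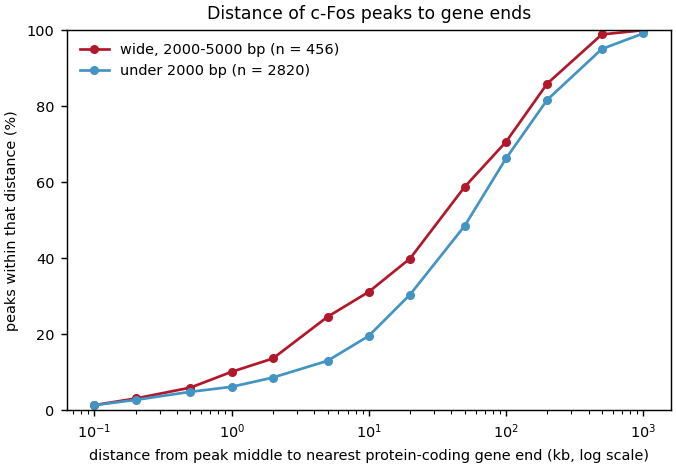
Share of peaks (%) whose middle lies within a given distance (kb, log scale) of the nearest protein-coding gene end, for 456 wide and 2820 narrower peaks. The curves run together up to 0.2 kb (3.07% of wide and 2.70% of narrower peaks) and are apart at 5 kb (24.6% and 13.0%) and at 50 kb (58.8% and 48.5%).

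Starts and opposite ends of genes were then taken apart. A promoter table gave the strand and the transcript start for 17274 of 21523 protein-coding genes (80.3%). Counting annotated starts alone, 41 of 438 wide peaks (9.36%) lay within 1 kb of one, against 139 of 2706 narrower peaks (5.14%), a difference of 4.22 points in a comparison chosen after seeing the data (Fisher's exact test, two-sided, adjusted p = 0.00332). The opposite end of a gene lay within 1 kb of 2 wide peaks (0.457%) and 22 narrower peaks (0.813%). Within 10 kb, wide peaks were at 16.0% for the opposite end, against 8.68% of narrower peaks, and at 21.7% for the start, against 13.2%. Wide peaks were thus the more frequent ones within 1 kb of starts, and within 10 kb of both ends. The shares other than that within 1 kb of a start are given with no test.

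The share near genes was lowest among the narrowest peaks and highest among those from 3000 to 5000 bp, with exceptions to the order between them. Within 10 kb of a gene end lay 15.1% of the 530 peaks under 1000 bp, 22.6% of those from 1750 bp to the limit, 27.6% of the 170 from 2000 to 2249 bp, 31.2% of the 109 from 2250 to 2499 bp, 28.8% of the 104 from 2500 to 2999 bp and 42.5% of the 73 from 3000 to 5000 bp (exact 95% interval 31.0 to 54.6). The share within 1 kb had no such order among wide peaks, at 16.5% from 2250 to 2499 bp (10.1 to 24.8) and 4.81% from 2500 to 2999 bp (1.58 to 10.9).

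**Figure D2:**
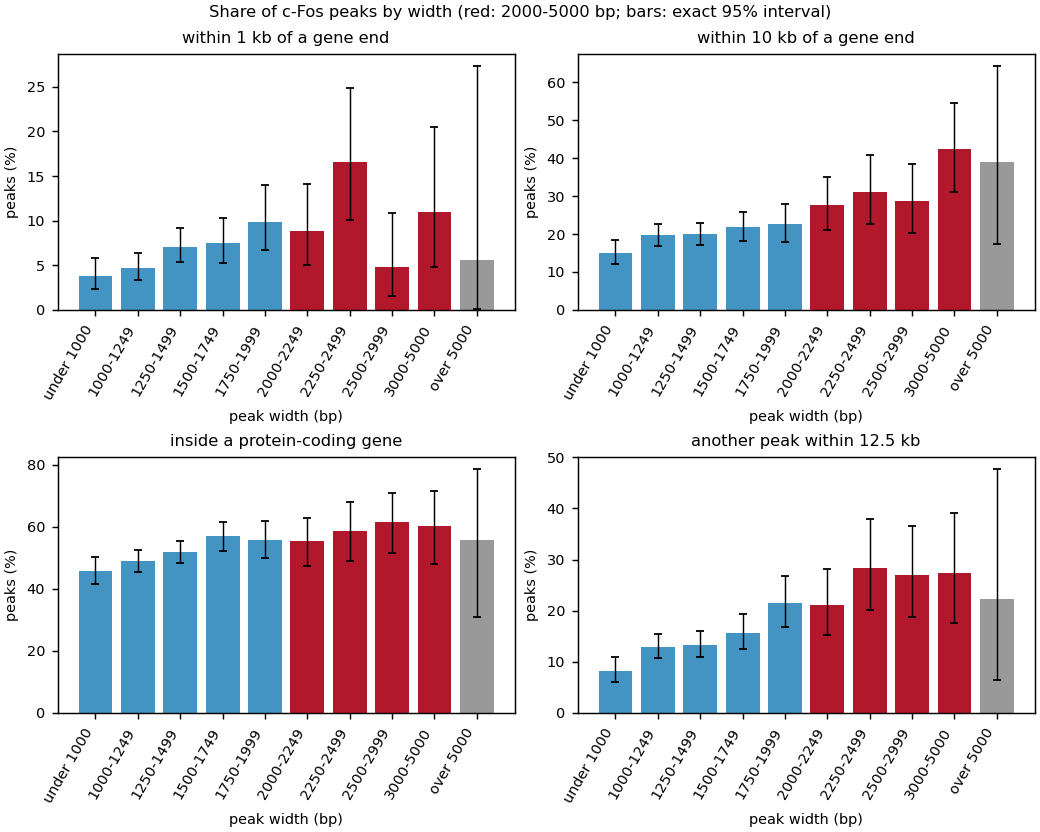
Share of c-Fos peaks (%) within 1 kb or 10 kb of a gene end, inside a protein-coding gene, or with another peak within 12500 bp, by peak width (bp). Bars are shares with exact 95% binomial intervals, which cover counting error only; red bars are wide peaks, blue bars narrower peaks and the grey bar the 18 peaks over 5000 bp. The share within 10 kb is 15.1% under 1000 bp and 42.5% from 3000 to 5000 bp, with a dip to 28.8% from 2500 to 2999 bp.

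Genes of developmental transcription factors were frequent among the genes closest to wide peaks. These factors pattern the embryo and fix cell identities, and many of them act mainly outside the hippocampus. The 6 families were homeobox, T-box, forkhead, developmental basic helix-loop-helix, developmental zinc finger and Sox genes, drawn up by symbol after the peaks had been seen, so that they carry no test. The nearest gene belonged to one of them for 11 of the 46 wide peaks within 1 kb of a gene end (23.9%), against 3 of the 173 narrower peaks there (1.73%). Within 10 kb the counts were 30 of 142 wide peaks (21.1%) and 20 of 551 narrower peaks (3.63%). By gene, 29 of the 326 family genes (8.90%) had a wide peak within 10 kb of an end, where all 21523 protein-coding genes stood at 0.855%, and 21 (6.44%) had a narrower peak there, where all genes stood at 3.16%. Homeobox genes gave 19 of the 29, T-box genes, forkhead genes and zinc finger genes 3 each and helix-loop-helix genes 1, and Sox genes none. Within 100 kb, 0 of the 19 Sox genes had a wide peak and 5 a narrower one, near the 4.18% and 18.6% of all genes.

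For 17 of the family genes, a wide peak could be placed near the first annotated start, and at 6 of them it spanned that start. At Lhx8 it ran from -1.21 to 1.23 kb around the start (chr3:154329332-154331768, 2437 bp), and its middle was 10 bp from the gene end, the shortest distance of any wide peak. Tbx18, a T-box gene of the epicardium, had a peak from -1.26 to 1.18 kb. At Isl1 the peak of 3509 bp reached from -1.63 to 1.87 kb (chr13:116307814-116311322), with a narrower peak 171 bp beyond it. Tbx20, a T-box gene of the heart, had one of 3419 bp from -0.94 to 2.48 kb. Foxd1, a forkhead gene of the kidney stroma and retina, had a pair of wide peaks, at -0.89 to 1.58 kb and at 2.10 to 4.36 kb, 514 bp apart. Otp, which specifies hypothalamic neurons, likewise had 2 wide peaks inside or across the gene, at -1.51 to 3.47 kb and at 5.47 to 7.98 kb.

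At other family genes the wide peak lay to one side of the start. Nkx2-3, a homeobox gene of gut and spleen, had a peak of 4241 bp that ended 3 bp before the start. Hlx, a homeobox gene of visceral mesoderm, had a peak from -2.26 to -0.14 kb. Downstream peaks covered 2.39 to 6.50 kb at Twist1, a helix-loop-helix gene of mesoderm and neural crest, and 2.58 to 5.31 kb at Foxa1, a forkhead gene of endoderm. Pou4f1, a homeobox gene of sensory neurons, had 2 wide peaks at its far end, 372 bp apart. Otx1 (3563 bp, 0.629 kb from a gene end), Osr2 (2596 bp, 0.733 kb), Irx1 (2033 bp, 0.775 kb) and Zic2 (4355 bp, 2.31 kb) have no annotated start in the table used, and their wide peaks had the middle inside the gene. Some of the counts share 1 peak: the peak of 3186 bp inside Evx2 (chr2:74656050-74659235) was also the wide peak of 8 neighbouring Hoxd genes within 100 kb, and 1 peak stood for both Hmx2 and Hmx3, homeobox genes of the inner ear, where it also covered a later annotated start of Hmx2.

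**Figure D3:**
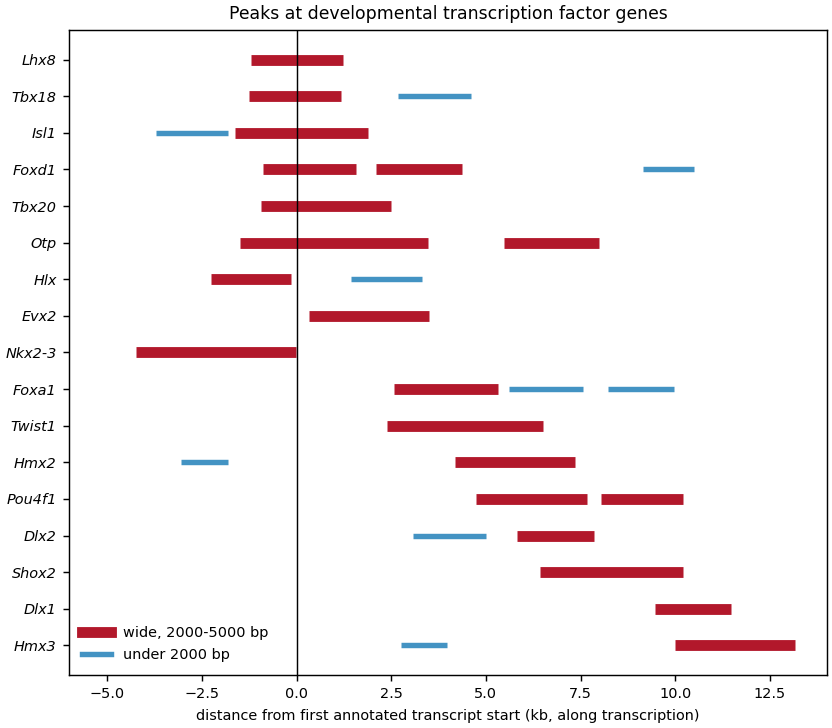
Extent of wide peaks (thick red) and narrower peaks (thin blue) around the first annotated start of 17 developmental transcription factor genes, in kb along the direction of transcription, with the start at 0. At Lhx8, Tbx18, Isl1, Foxd1, Tbx20 and Otp a wide peak crosses the start, and at Nkx2-3 it ends at the start.

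The 20 wide peaks nearest to a gene end, all within 0.344 kb of it, also included those of genes outside the families and lists. Rtn4 (2168 bp, middle 0.121 kb from the gene end) encodes Nogo, an inhibitor of axon growth, and Hpcal4 (3536 bp, 0.202 kb) encodes a neuronal calcium sensor. Sertad1 (2025 bp, 0.222 kb) encodes a transcriptional coregulator, Dnajb6 (2389 bp, 0.327 kb) a chaperone and Map9 (2014 bp, 0.071 kb) a microtubule-associated protein. Opn3 (2001 bp, 0.057 kb), Kbtbd3 (2001 bp, 0.159 kb), Stard3nl (2350 bp, 0.194 kb) and Fpgt (2107 bp, 0.292 kb) were further ones, beside the copies on chromosome 17 described below.

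Several genes induced by neuronal activity had wide peaks. Of 39 activity-induced effector genes, 11 (28.2%) had a wide peak within 100 kb of an end, and of 24 activity-induced transcription factor genes 3 had one, where all protein-coding genes stood at 4.18%. For narrower peaks the counts were 16 (41.0%) and 10 (41.7%), where all genes stood at 18.6%. Of the 33 genes of these lists together with any wide or narrower peak within 100 kb, 14 (42.4%) had a wide one, beside 19.8% of all genes with a peak. By list this was 11 of 22 effector genes (50%) and 3 of 11 transcription factor genes (27.3%). Within 10 kb, 9 of the 63 genes (14.3%) had a wide peak and 11 (17.5%) a narrower peak. All protein-coding genes stood at 0.855% and 3.16% at that distance. These lists were drawn up with earlier results of these data known, and their counts are descriptions.

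Wide peaks covered the annotated promoter window of 4 activity-induced effector genes. Homer1 had its peak middle 261 bp inside the gene (chr13:93302781-93305254, 2474 bp). At Gadd45b, which encodes a protein of DNA repair and demethylation, the middle lay 402 bp upstream (chr10:80928488-80930889, 2402 bp). At Rheb, which encodes the GTPase that activates mTORC1, it lay 413 bp upstream (chr5:24841723-24843824, 2102 bp), and at Pim1, which encodes a serine/threonine kinase, 464 bp upstream (chr17:29489319-29491322, 2004 bp). None of these 4 windows held the AP-1 or CRE letters, and each was rich in CpG, with observed to expected ratios from 0.847 at Pim1 to 1.30 at Rheb. None of the 4 genes had a narrower peak within 100 kb.

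At other activity-induced genes the wide peak lay over the gene, beside it or at a distance. Arc, which encodes a regulator of synaptic glutamate receptors, had 2 wide peaks within 100 kb and 1 narrower peak, and the nearer wide peak, of 3956 bp (chr15:74669102-74673057), covered almost the whole gene. No protein-coding gene lay whole within a wide peak. Scg2, the gene of the secretory granule protein secretogranin II, had one 2.16 kb beyond its transcript end (chr1:79431091-79433323, 2233 bp). Ccn1, which encodes a secreted matrix protein, had one 2.67 kb upstream (chr3:145651141-145654158, 3018 bp). Fos itself had a wide peak 9.58 kb downstream (chr12:85485579-85488126, 2548 bp) and Junb, which encodes a dimer partner of c-Fos, one 7.08 kb upstream (chr8:84984720-84986927, 2208 bp). Beyond 10 kb lay those of Arl4d (20.1 kb), Nptx1 (22.4 kb), Atf3 (40.8 kb), Kcna1 (40.9 kb) and Bdnf (55.6 kb upstream, 2535 bp), the gene for brain-derived neurotrophic factor. The peaks given for Junb and Nptx1 lay nearer to other genes, Hook2 (2.95 kb) and Endov (4.87 kb). Among 22 genes of AP-1 partners and related factors, 2 (9.09%) had a wide peak within 100 kb and 8 (36.4%) a narrower one. All genes stood at 4.18% and 18.6%. Atf4, a stress-responsive basic leucine zipper gene, had a wide peak across its start (2381 bp, middle 110 bp upstream), and Bach2 had one 20.5 kb away.

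The nuclei were sorted on a tag switched on by CaMK2a-Cre, and several markers of GABAergic interneurons had wide peaks. Of 26 interneuron markers, 7 (26.9%) had a wide peak within 100 kb and 6 (23.1%) within 10 kb, while 6 had a narrower peak within 100 kb and 3 within 10 kb. Over all protein-coding genes these shares were 4.18% and 0.855% for wide peaks, and 18.6% and 3.16% for narrower peaks. Gad1, one of the genes for the GABA-synthesising enzyme, had a peak of 3665 bp across its annotated gene end, with the middle 590 bp upstream (chr2:70558881-70562545). Gad2, which encodes the second form of the enzyme, had one of 2786 bp inside the gene, and Slc32a1, which encodes the vesicular GABA transporter, one of 2617 bp inside the gene. The other 4 were the homeobox genes Dlx1, Dlx2, Dlx5 and Dlx6, also counted among the families above: Dlx1 and Dlx2 shared 1 wide peak, and Dlx5 and Dlx6 another. A peak list does not say whether a gene is expressed, and the part that nuclei of other cell types had in these peaks was not tested.

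Markers of other cell types were counted in the same way. None of 18 astrocyte, 18 oligodendrocyte and 18 microglia markers had a wide peak within 100 kb. A narrower one lay there for 6 (33.3%), 3 (16.7%) and 4 (22.2%) of them, where all genes stood at 18.6%. Of 16 vascular markers, 2 had a wide peak within 100 kb, Mfsd2a (75.7 kb) and Pecam1 (89.7 kb), and none within 10 kb. A narrower peak lay within 100 kb of 3 (18.75%). Of 24 pyramidal cell markers, 1 had a wide peak within 100 kb and 5 (20.8%) a narrower one. Spink8, a gene expressed in CA1, held the third widest of the wide peaks (4679 bp, middle 3.39 kb inside the gene). Of 16 markers of dentate gyrus and CA3, Nectin3, which encodes an adhesion protein of synapses, had a wide peak (2099 bp, 3.30 kb inside the gene). A narrower peak lay within 100 kb of 5 of these 16 (31.25%). For wide peaks within 100 kb all genes stood at 4.18%. With lists of 16 to 24 genes, counts of 0 or 1 at that distance are near what that share gives. Counting only the nearest gene of each peak, 3 of the 24 pyramidal cell markers had a wide peak and 6 a narrower one. Interneuron markers had them in 5 and 4 of 26, where all genes stood at 1.70% and 8.92%. Markers of dentate gyrus and CA3 had a wide peak in 1 of 16 by that link. The astrocyte, oligodendrocyte, microglia and vascular lists had 0.

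Among lists of synaptic and signalling genes, glutamatergic synapse genes had a wide peak within 100 kb of a gene end in 5 of 28, beside 12 with a narrower peak, where all genes stood at 4.18% and 18.6%. They were Homer1, the scaffold genes Shank1 (13.6 kb from a gene end), Magi2 and Dlgap1, and the adhesion gene Lrrtm2 (84.6 kb). The count was 8 for a wide peak inside the gene or within 10 kb of it, a link that reaches peaks deep inside long genes such as Grin2a and Grin2b, and 9 by the nearest gene of each peak. All genes stood at 1.44% and 1.70% by these links. A narrower peak was linked to 17 of the 28 by either link, where all genes stood at 6.60% and 8.92%. Inhibitory synapse genes had a wide peak in 1 of 24 within 100 kb (2 by each of these other links), Gabra2, which encodes a GABA receptor subunit, beside 10 with a narrower peak. Of 28 neuropeptide and secretory genes 3 had one, namely Scg2, Bdnf and Cpe, the gene for a prohormone-processing enzyme. Of 29 ion channel genes 2 had one (3 by gene body and 5 by nearest gene), the potassium channel gene Kcna1 and the sodium channel gene Scn8a (92.5 kb). Of 24 neuronal transcription and chromatin genes 3 had one: the histone demethylase gene Kdm6b, which held a peak of 2199 bp, the zinc finger gene Hivep2 and the deacetylase gene Hdac9. The peak of Hdac9 lay 85.5 kb from that gene and was the one described above at Twist1. A narrower peak within 100 kb was found for 8 of these 24 genes and for 11 of the 28 neuropeptide and secretory genes. Of 30 housekeeping genes 2 had a wide peak (Ywhaz and Vcp), and of 30 genes specific to other organs 1 (Cela1). The peak of Cela1 was the same as that of Scn8a and lay inside another gene, Slc4a8. The inhibitory synapse, ion channel, housekeeping and other organ counts within 100 kb were near the share over all genes. By gene body and by nearest gene, ion channel genes stood at 10.3% and 17.2% and inhibitory synapse genes at 8.33% by each. Those shares were above the 1.44% and 1.70% of all genes. For narrower peaks the shares were 34.5% and 37.9% of ion channel genes and 37.5% and 50% of inhibitory synapse genes, also above all genes.

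Wide peaks gathered inside a few genes, and in Syt1, Dlgap1 and Magi2 narrower peaks did too. Over the whole list, wide peaks were 13.9% of wide and narrower peaks together. Syt1, which encodes the calcium sensor of synaptic vesicle release, held 11 wide peaks of 2027 to 3645 bp, beside 10 narrower ones, in 513 kb. Its wide peaks all lay between 47.1 and 248 kb from the lower-coordinate end, and its narrower ones between 112 and 508 kb, with 5 of the 10 beyond 303 kb. Dlgap1, the gene of a postsynaptic density scaffold, held 9 wide and 17 narrower peaks in 852 kb. Magi2, another synaptic scaffold gene, held 5 wide and 10 narrower peaks in 1485 kb. St6galnac5, which encodes a sialyltransferase of brain gangliosides, held 5 wide peaks (2980, 3387, 3193, 2004 and 4756 bp, in order of position) and no narrower one in 162 kb.

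Further genes held 3 or 4 wide peaks. Celf2, which encodes an RNA-binding splicing regulator, had 4 wide and 9 narrower peaks, and Msra, which encodes methionine sulfoxide reductase A, 4 wide and 5 narrower peaks. Clstn2, a synaptic adhesion gene of the calsyntenin family, had 3 of each kind. Grin2b, the gene for an NMDA receptor subunit, had 3 wide peaks (2849, 2981 and 2402 bp) and 2 narrower ones, and Grin2a, for another subunit, had 2 wide peaks (2849 and 2711 bp) and 3 narrower ones. Enox1 and Lpp held 3 wide peaks each, beside 6 and 4 narrower ones. Ppp3ca, which encodes the catalytic subunit of calcineurin, held 2 wide peaks of 2157 and 3142 bp beside 4 narrower ones, and Rcan1, whose product acts on calcineurin, held 2 wide peaks and no narrower one. Counted by distance from gene ends instead, Gm5136, a gene that lies within Syt1, had 8 wide peaks within 100 kb, St6galnac5 had 5 and its neighbour Pigk had 4 of them. Nsun3, which encodes an RNA methyltransferase, Mettl24 and Hivep2 had 3 each. Long genes offer more room for peaks of any width, and these counts are not corrected for length.

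**Figure D4:**
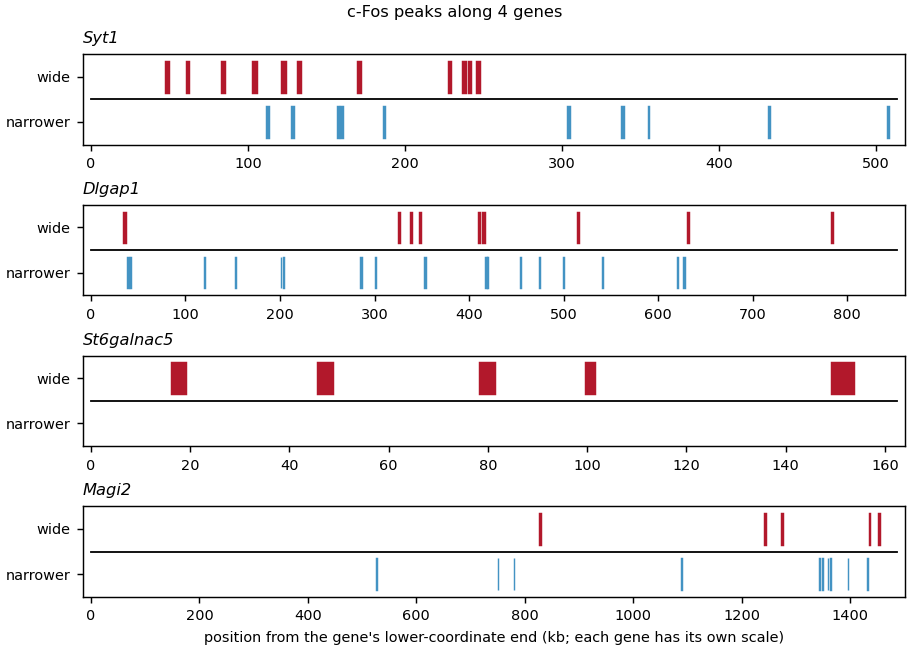
Positions of wide peaks (upper row, red) and narrower peaks (lower row, blue) along 4 genes, in kb from the gene's lower-coordinate end, each gene on its own scale. Syt1 has 11 wide and 10 narrower peaks, Dlgap1 9 and 17, St6galnac5 5 and 0, and Magi2 5 and 10.

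Wide peaks had close neighbours more often than narrower peaks. Another peak lay within 12500 bp, edge to edge, of 115 wide peaks (25.2%, 21.3 to 29.5) and 380 narrower peaks (13.5%, 12.2 to 14.8). A wide peak lay that near to 39 wide peaks (8.55%) and 99 narrower peaks (3.51%). The next peak was under 1 kb away for 26 wide peaks (5.70%) and 67 narrower peaks (2.38%), and the median gap was 62.2 kb for wide peaks and 140 kb for narrower peaks. Neighbours and widths come from the same calls, so these shares carry no test.

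The promoters covered by wide peaks held the AP-1 letters at a share close to that of promoters in narrower peaks. An entire promoter window lay inside 45 of 438 wide peaks (10.3%, 7.59 to 13.5) and 122 of 2706 narrower peaks (4.51%, 3.76 to 5.36), counts that a longer peak raises by its length alone. The wide peaks covered 58 windows of 50 genes and the narrower peaks 154 windows of 138 genes. TGANTCA on either strand was found in 10 of 58 windows in wide peaks (17.2%, exact 95% interval 8.59 to 29.4), 29 of 154 in narrower peaks (18.8%, 13.0 to 25.9) and 1481 of all 21045 windows (7.04%). TGACGTCA, which does not overlap TGANTCA in its letters, was in 3 windows in wide peaks (5.17%, 1.08 to 14.4), 19 in narrower peaks (12.3%, 7.59 to 18.6) and 475 of all windows (2.26%). The intervals for wide and narrower peaks overlap for both motifs.

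The AP-1 matches in wide peaks could only be placed within the windows read, from 250 bases before to 50 bases after a transcript start. Their positions were not compared with those in narrower peaks. The matches of Nebl, Pak6, Rtn4, Trim9 and Ubald1 began 28, 11, 15, 15 and 7 bp after the start. Those of Rnh1 and the internal promoter of Rcan1 began at -179 and -110 bp. The CRE matches were those of Rcan1, of Lekr1 (at -10 and 6 bp) and of Zbtb21 (at 0 bp). A match to these letters is not evidence of a bound site, and most of each peak lay outside the 300 bases read here.

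**Figure D5:**
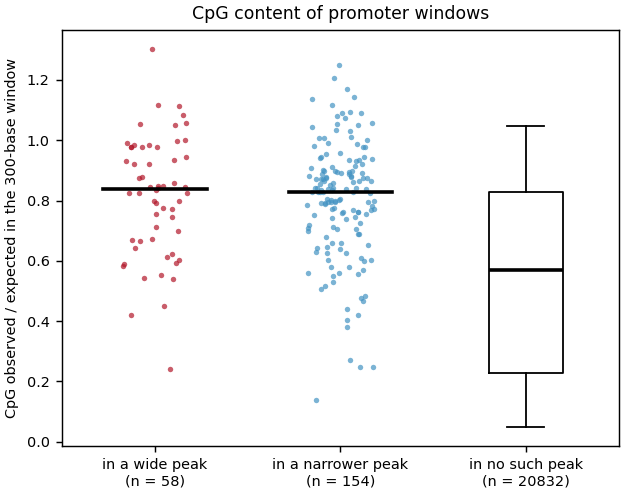
Observed over expected CpG in 300-base promoter windows lying in a wide peak (red, n = 58), in a narrower peak (blue, n = 154) or in neither (box, n = 20832). Points are windows, horizontal lines medians, the box the quartiles and its whiskers the 5th and 95th percentiles. Windows in wide and narrower peaks share a median near 0.83, above the 0.568 of the other windows.

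CpG content had similar medians in promoters under both kinds of peak, above that of promoters in general, with no test. The median ratio of observed to expected CpG was 0.838 in wide peaks, 0.828 in narrower peaks and 0.574 over all windows. A ratio of at least 0.6 with a GC content of at least 50%, a usual mark of a CpG island, was met by 48 of 58 windows in wide peaks (82.8%, 70.6 to 91.4), 120 of 154 in narrower peaks (77.9%, 70.5 to 84.2) and 9599 of all windows (45.6%). Median GC content was 63.3% in wide peaks, 59.2% in narrower peaks and 56.7% over all. Starts on both strands, as at divergent promoters such as Cetn4 and Bbs12, were covered by 6 of 45 wide peaks (13.3%) and 15 of 122 narrower peaks (12.3%). Peak middles fell on either side of the covered starts, 31 downstream and 27 upstream of 58, with a median of 64 bp downstream and a range from -1416 to 1035 bp.

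Of the 10 promoters with an AP-1 match, 3 are copies of 1 sequence. The windows of Gm3417, Gm3448 and Tcte3 on chromosome 17 were 100% identical, and each lay in a wide peak, of 2301 bp (chr17:14977699-14979999), 2056 bp (chr17:15009283-15011338) and 2096 bp (chr17:15040651-15042746). Their starts were 31.4 kb apart from one copy to the next, and the peak middles 31.5 and 31.4 kb apart. Reads of identical copies cannot be told apart, so the 3 peaks may be fewer sites, and the count of 10 matches includes all 3. A window identical to that of another gene was found for 3 of 58 windows in wide peaks (5.17%), 2 of 154 in narrower peaks (1.30%) and 288 of 21045 in all (1.37%).

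Along the chromosomes, the wide share of wide and narrower peaks together was 13.9%. It was highest on chromosome 17 (25 of 123, 20.3%, exact 95% interval 13.6 to 28.5) and chromosome 14 (33 of 166, 19.9%) and lowest among autosomes on chromosome 1 (26 of 276, 9.42%, 6.25 to 13.5). Of the 25 on chromosome 17, 9 lay inside Dlgap1 and 3 at the copies with identical windows described above. The X chromosome had none of the 456 wide peaks, which allows a share of up to 0.658% by 3 counts and 0.806% by the exact 95% interval, and 20 of 2820 narrower peaks (0.709%). The difference of -0.709 points (95% interval -1.09 to 0.163) did not pass the test (Fisher's exact test, two-sided, adjusted p = 0.0984). It passed with wide peaks from 1800 bp, at 0 of 670 wide peaks against 20 of 2606 narrower peaks (exact test, adjusted p = 0.0215).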

How the data were processed

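CUT&RUN libraries of c-Fos and of IgG, 3 each after KA and after PBS, were grouped by their labels. The submitters' processing notes name SEACR 1.1, bedtools 2.27.1, Bowtie2 2.2.9 and Trimmomatic 0.36, and the builds mm10 and sacCer3; settings and the way replicates were combined were not given in the sources used. The authors' deposited file has 3 columns (chromosome, start and end) of 3295 peaks, of which 1 on an unplaced sequence was left out. Its positions carry no signal, fold or count, and it was taken to stand for the KA c-Fos group.

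Positions count from 1 on mm10. The gene table was that of RefSeq for GRCm38.p6, without strand or exons; 108 protein-coding genes placed below position 3000000, apparently on scaffold coordinates, were left out, leaving 21523. Strand and 21045 promoter windows came from the RefSeq promoter table, which covers 80.3% of these genes and none on chromosome 18, so either gene end was used where the plan named the transcript start. No genome was used, so sequence was read in promoter windows only. Distances run from the peak middle.

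Shares of wide and narrower peaks were compared with two-sided Fisher's exact tests (scipy 1.17.1). P-values were adjusted by Benjamini-Hochberg over 4 location shares, with a threshold of 0.05. Intervals of single shares are exact (Clopper-Pearson, 95%). Those of differences were built from the Wilson 95% limits of both shares, and that of the odds ratio is a conditional 95% interval. All of them cover counting error over peaks only. The bound for a count of 0 is 3 counts of the total. The planned test of clustering is not given, because neighbours come from the same calls as the widths. The distance code was tested on simulated peaks. The members and the 17 gene lists (414 entries, all matched) were chosen with earlier results of these data known, and the 6 transcription factor families after the peaks were seen.

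Genes were named by a rule: activity-induced genes with a wide peak within 100 kb, up to 4 genes of each other list, the nearest genes of the 10 widest peaks, the 10 genes with most wide peaks, the 20 nearest genes, genes within a wide peak and genes holding 3 or more. Not every gene so chosen is named. Family genes, genes with motif matches, genes holding 2 wide peaks and those at the width limits were named after their values were seen.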

Additional observations from a re-analysis of the deposited data

How the results depend on the processing

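No paired analysis was possible because replicates have no values of their own in the list, and none could be left out. All differences below are wide minus narrower, in percentage points, and none changed sign under the alternatives run. The share within 1 kb of a gene end (3.95) no longer passed the test with wide peaks from 2500 bp (1.21), in a window of 500 bp (1.1) or, chosen after seeing the data, without peaks nearest to the 6 families (2.22). The share inside genes (7.20) no longer passed from 2500 bp (9.88), among peaks with no other within 12500 bp (4.44) or, chosen after seeing the data, without Syt1, Dlgap1, Magi2 and St6galnac5 (4.91). The share beyond 100 kb (-4.37) passed with wide peaks from 1800 bp (-5.27), with no upper width limit (-5.07), with all gene types (-3.39) and at a limit of 50 kb (-10.3). The share on X passed from 1800 bp (-0.767). The share with a neighbour was 11.7 points apart at 12500 bp and 16.2 at 50 kb. Fewer peaks and genes enter with higher width limits and shorter links, and the cause of the other shifts was not tested. Genes linked to wide peaks numbered 899 within 100 kb, 184 within 10 kb, 311 for the gene body with 10 kb and 365 for the nearest gene only, and activity-induced genes 14, 9, 9 and 14. Read depth is unknown, so weaker sites under the calling threshold are missing from every count.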
